A study of Mus musculus with 6 samples.

Results

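The 10 genes described here, Fgfr4, Smad5, Ptdss1, Serpinb9b, Fancc, Habp4, Hsd17b3, Glrx, Polk and Cd180, lie on mouse chromosome 13. They were chosen by their measured values, because gene means or single probe sets within them differed between livers of Dhx32 homozygous mutant mice and control mice. They make up 10 of the 15045 genes measured and 10 of the 538 measured on chromosome 13. Each was found by its symbol in the platform's table of probe sets and genes, where 126 probe sets carry 1 of these symbols alone. Of these, 123 had a mean log2 signal of 3 or more in at least 1 group and were used. The differences between the groups chose these genes, so their values are given as a description. What the fits over all genes gave for them is stated once, as counts beside the share of all genes, and supports nothing here.

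RNA came from snap-frozen liver of 6 male mice, 6 to 8 weeks old, with 1 exon-level array for each mouse. The labels give 3 mice as wild-type controls and 3 as Dhx32-/- mutants identified by genotyping. Dhx32 encodes an RNA helicase of the DEAH-box type and lies on chromosome 7. The labels do not give the nature of the mutation, the strain background of either group or whether control and mutant mice were littermates. An exon-level array carries a separate probe set for most exons of a gene, so that a difference at most probe sets of a gene can be told from one at a single probe set. Positions and sequences of the probe sets were not used here, so which exon a named probe set covers, and whether the mice differ in sequence under it, was not tested.

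The genes share a chromosome rather than a pathway. Fgfr4 encodes the hepatocyte receptor for the gut hormone FGF15, which with its co-receptor beta-Klotho restrains bile acid synthesis. Smad5 encodes a transcription factor that is phosphorylated by bone morphogenetic protein (BMP) receptors and, in liver, acts in the control of hepcidin. Ptdss1 encodes an enzyme of the endoplasmic reticulum that makes phosphatidylserine from phosphatidylcholine. Serpinb9b belongs to a cluster of intracellular protease inhibitors. Fancc encodes a subunit of the Fanconi anaemia core complex, which acts in the repair of DNA crosslinks, and Polk a DNA polymerase that copies past damaged bases. Habp4 encodes a protein that binds hyaluronan and RNA. Hsd17b3 encodes a 17-beta-hydroxysteroid dehydrogenase, best known for making testosterone in the testis. Glrx encodes glutaredoxin, which removes glutathione from oxidised proteins. Cd180 encodes a surface receptor of B cells and other immune cells related to Toll-like receptors.

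The deposited log2 signals had medians of 6.73 to 6.95 across the arrays. Dhx32 itself was lower in the mutants, at 6.66 ± 0.35 against 8.58 ± 0.29 in controls (SD, n = 3). Mutant replicate 1 stood apart, with correlations of 0.935 to 0.940 with the other arrays, against 0.960 to 0.973 among those 5. Hepatocyte markers gave high signals on every array. Averaged over the 6 arrays, the 11 measured markers, such as albumin, lay between 11.3 and 13.9. Precision is set here by the number of arrays, 3 in each group. The labels do not say whether the mice of a group came from separate litters, so p-values measure the spread between these 6 livers.

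Gene means were lower in mutants for 6 of the 10 genes and higher for 4. The groups did not overlap in 7 of them, which were Smad5, Fancc, Habp4 and Polk on the lower side and Serpinb9b, Hsd17b3 and Glrx on the higher side. Such separation was found in 9.47% of all measured genes, in 4.32% on the lower side and in 5.15% on the higher side. The count of 7 ranged from 6 to 10 under other settings and with 1 array left out. Over all genes 1425 were separated with all arrays and 2247 to 4124 with 1 array left out, so the share of 9.47% does not apply there. The count of 10 came without mutant replicate 3, where 4124 genes were separated. The median size of the difference, without its sign, was 0.61 log2 units over the 10 genes and 0.14 over all genes. None of the 10 passed in limma with adjustment over all genes, where 0.00665% of genes did. At an unadjusted p under 0.05 in limma stood 8 of the 10, and 4.21% of all genes. For exon usage, the difference of a probe set from the rest of its gene, 4 of the 9 with enough probe sets passed the diffSplice F-test, against 0.210% of all genes; these were Fgfr4, Ptdss1, Serpinb9b and Smad5. With the smallest Simes-adjusted p in place of the F-test, 4 of the 9 passed and 0.908% of all genes. Since this contrast chose the genes, nothing is read from these shares. Leaving out control replicate 2 or control replicate 3 gave 0 exon usage calls by the F-test among the 9, and leaving out any other single array gave 2 or 3.

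**Figure D1:**
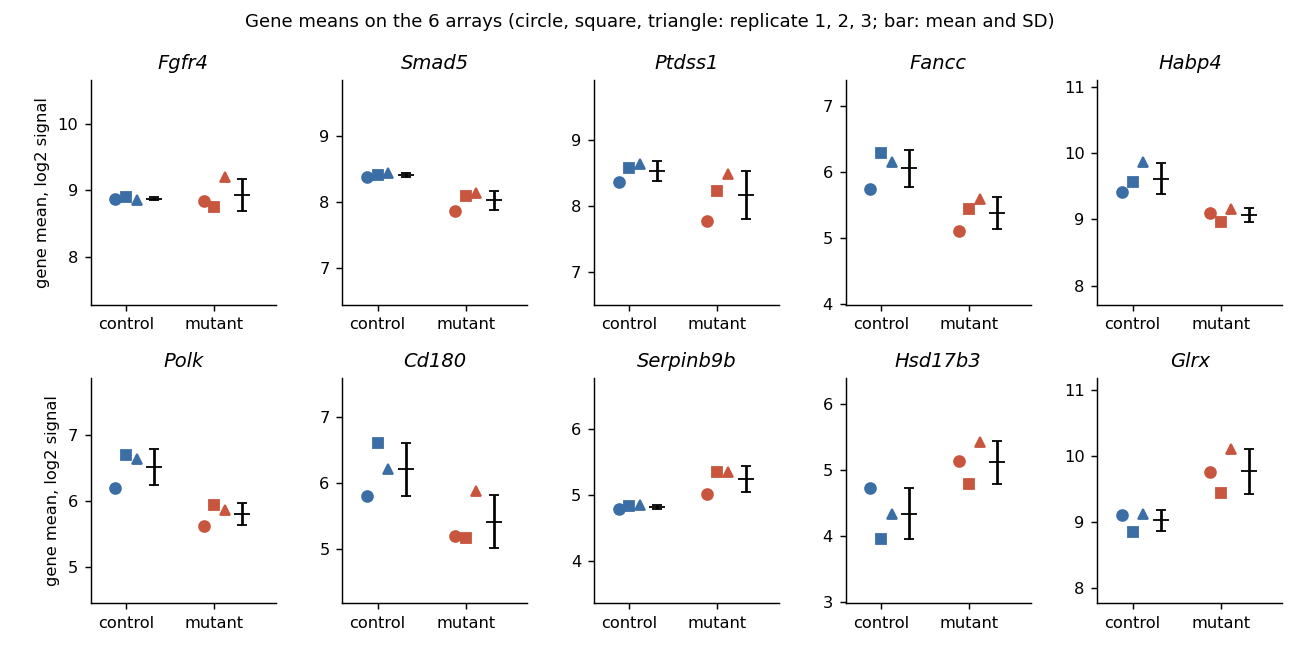
Gene means (log2 signal) of the 10 genes on the 3 control and 3 mutant arrays, with the mean and SD of each group beside the points; each panel spans the same range of log2 units. Points of the groups are apart in Smad5, Fancc, Habp4, Polk, Serpinb9b, Hsd17b3 and Glrx, and overlap in Fgfr4, Ptdss1 and Cd180.

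The first set of genes differed at 1 probe set more than elsewhere. The controls gave 8.44, 9.40 and 8.95 at probe set 4927089 of Ptdss1, and the mutants 4.65, 6.08 and 4.15. All mutants were far below all controls, by 3.97 log2 units between the means or 15.7-fold. The other 17 probe sets of Ptdss1 had a mean of 8.50 ± 0.14 in controls and 8.36 ± 0.39 in mutants (SD, n = 3), and on this measure the groups overlapped. Of those 17, 11 were lower in mutants and 6 higher. Of all 18 probe sets 2, with 4927089 among them, had all mutants below all controls, where 4.42% of the probe sets of all genes had this. Probe set 5509869 was low in mutant replicate 1 alone, at 3.28, whereas the other 5 arrays read 6.81 to 7.18. The gene mean of Ptdss1 read 8.36, 8.58 and 8.64 in the controls and 7.78, 8.23 and 8.49 in the mutants, so the groups overlapped. Its difference was -0.36, and -0.17 without mutant replicate 1.

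Fgfr4 likewise had 1 low probe set in mutants, while its gene mean was not lower. At probe set 5230269 the controls gave 9.32, 10.43 and 10.38, and the mutants 6.91, 7.72 and 8.69, which is 4.82-fold lower between the means. Here the controls and the mutants did not overlap, but the lowest control and the highest mutant were close. The gene mean of Fgfr4 was 8.87 ± 0.02 in controls and 8.93 ± 0.24 in mutants (SD, n = 3). Without that probe set the mutants were above the controls by 0.18, with overlapping groups. Of its other 18 probe sets 13 were higher in mutants and 5 lower. In 2 of them, 4876029 and 5124865, which were found after the values were seen, all mutants lay above all controls, by 0.44 and 0.47 between the means. Over the probe sets of all genes 3.97% had mutants wholly above controls.

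Smad5 was lower at most of its probe sets and at 1 by more than the rest. At probe set 5010462 the controls gave 8.33, 9.13 and 9.08, and the mutants 6.77, 7.44 and 7.01, or 3.41-fold lower between the means. The remaining 12 probe sets together read 8.38 ± 0.02 in controls and 8.11 ± 0.14 in mutants (SD, n = 3), still without overlap. The gene mean was 8.39, 8.42 and 8.44 in the controls and 7.87, 8.09 and 8.14 in the mutants. The controls of Smad5 thus lay within 0.05 of each other, and each mutant lay below them. Of all 13 probe sets 10 were lower in mutants, 7 of them with no overlap, where 4.42% of the probe sets of all genes had this.

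Serpinb9b differed at a single probe set, in the other direction. The controls gave 2.56, 2.49 and 1.96 at probe set 5275764, all under the minimum of 3, and the mutants 5.35, 4.61 and 4.58. It was kept because of the mutants, and the size of its difference, 2.51 log2 units, is limited by the background on the control side. The other 5 probe sets had the same mean in both groups, 5.32 ± 0.10 in controls and 5.32 ± 0.32 in mutants (SD, n = 3). The gene mean, 4.79, 4.84 and 4.85 in the controls against 5.02, 5.35 and 5.35 in the mutants, therefore rests on that probe set. Its difference of 0.42 was 0.21 with no minimum on the signal, -0.05 with a minimum of 5 and 0.18 without control replicate 3. Serpinb9b has close relatives in its cluster, and whether these probe sets also bind their transcripts was not tested.

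**Figure D2:**
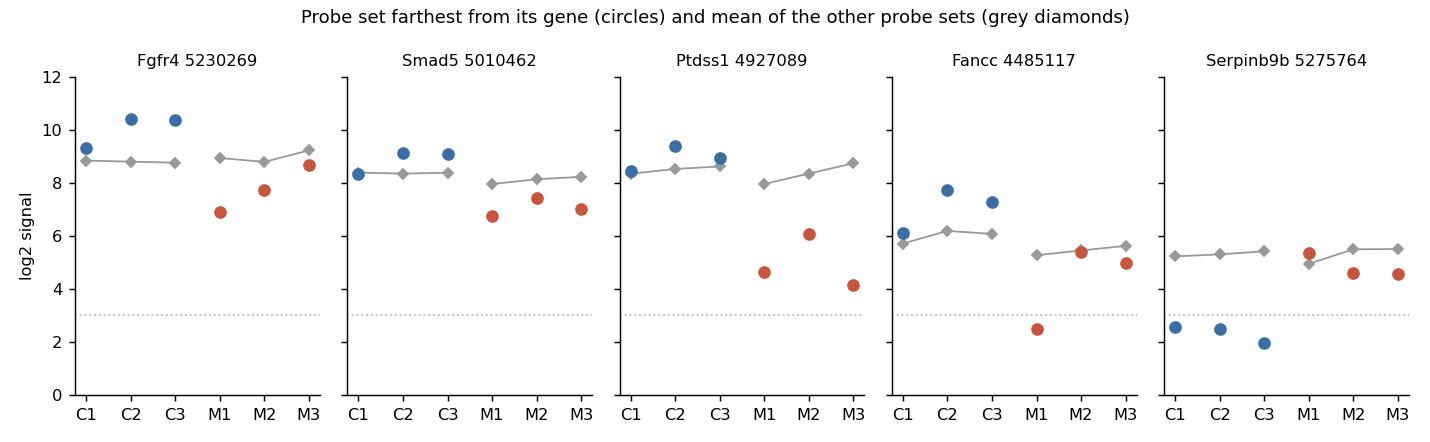
Log2 signal of the probe set farthest from the rest of its gene (circles, blue for controls C1 to C3 and red for mutants M1 to M3) in Fgfr4, Smad5, Ptdss1, Fancc and Serpinb9b, with the mean of the other probe sets of the gene as grey diamonds; the dotted line is the signal minimum of 3. The circles of the mutants lie below those of the controls in the first 4 panels and above them in Serpinb9b, while the diamonds of Fgfr4, Ptdss1 and Serpinb9b overlap between the groups.

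Control replicate 1 was the lowest control at each of the 4 lower probe sets of Fgfr4, Smad5, Ptdss1 and Fancc. Relative to the rest of its gene on the same array, it stood at 0.47, -0.06, 0.09 and 0.39 in that order. The other controls stood at 1.62 and 1.61 in Fgfr4, 0.77 and 0.69 in Smad5, 0.87 and 0.32 in Ptdss1, and 1.55 and 1.19 in Fancc. The mutants stood between -4.60 and -2.27 in Ptdss1, between -2.03 and -0.54 in Fgfr4 between -1.23 and -0.70 in Smad5 and between -2.78 and -0.06 in Fancc. Control replicate 1 was thus between the other controls and the mutants in these genes. Over chromosome 13, 12 probe sets lay 2 or more log2 units below the rest of their gene, and control replicate 1 was the lowest control in 9 of them. Over all chromosomes it was the lowest control in 65 of 112 such probe sets, control replicate 2 in 24 and control replicate 3 in 23. This pattern was noticed after the values were seen.

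The second set of genes was lower at most of its probe sets. Polk, the translesion polymerase, was lower in mutants at all 23 of its probe sets, by 0.04 to 2.13. Its gene mean read 6.20, 6.69 and 6.63 in the controls and 5.62, 5.93 and 5.85 in the mutants. Every mutant lay below every control, and the means differed by 1.63-fold. In 7 of the 23 probe sets the groups did not overlap, where 4.42% of the probe sets of all genes were separated on the lower side. Among the 7, 4801375 had a narrow spread in both groups, at 7.94 ± 0.13 in controls and 7.18 ± 0.04 in mutants (SD, n = 3). The farthest from the rest of the gene was 4697555, at 3.77 ± 0.60 and 1.63 ± 0.55, near or under the signal minimum. Probe set 4863362 was low in mutant replicate 1 alone, at 2.10, against 5.24 to 6.40 on the other arrays. Without mutant replicate 1 the difference of Polk was -0.62, against -0.71 with it.

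Fancc, the Fanconi anaemia subunit, was lower at 15 of 17 probe sets. In 3 of the 17 all mutants lay below all controls, where 4.42% of the probe sets of all genes had this, and in 14 the groups overlapped. The gene mean of Fancc was 5.74, 6.28 and 6.15 in the controls and 5.11, 5.45 and 5.59 in the mutants, a 1.60-fold difference with no overlap. Probe set 4485117 had the largest difference, with 6.11, 7.75 and 7.27 in the controls and 2.50, 5.39 and 4.97 in the mutants. Mutant replicate 1 was the lowest there, and without it the difference from the rest of the gene was -1.40 instead of -2.21. Probe sets 5156045 and 5375838 also separated the groups, at 5.63 ± 0.34 against 3.64 ± 0.94 and at 5.21 ± 0.59 against 3.67 ± 0.77 (SD, n = 3). The 16 probe sets other than 4485117 were 6.00 ± 0.25 in controls and 5.45 ± 0.18 in mutants together, still without overlap.

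Habp4, the hyaluronan- and RNA-binding protein, read 9.42, 9.57 and 9.87 in the controls and 9.09, 8.96 and 9.15 in the mutants. All mutants were below all controls, by 1.46-fold between the means. Of its 9 probe sets 7 were lower in mutants, 4 of them with no overlap, where 4.42% of the probe sets of all genes had this. The largest difference was that of 4511028, from 10.15 ± 0.37 to 8.57 ± 0.21 (SD, n = 3). Probe sets 5308065 and 4777216 were not lower, with differences of 0.25 and 0.33 and overlapping groups. With the median over the probe sets in place of the mean, the difference of Habp4 was -0.92 instead of -0.55.

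Cd180, the Toll-like receptor relative of immune cells, was 1.73-fold lower in mutants between the means, but its groups overlapped. The controls read 5.80, 6.60 and 6.21 and the mutants 5.20, 5.17 and 5.88, so that mutant replicate 3 lay above control replicate 1. All 5 probe sets were lower in mutants, by 0.36 to 1.25. Probe sets 4365414 and 5306107 had no overlap, the latter at 7.39 ± 0.26 in controls and 6.67 ± 0.34 in mutants (SD, n = 3). Over the probe sets of all genes 4.42% had mutants wholly below controls. In liver tissue fewer cells of a type and less RNA per cell cannot be told apart. B cell markers, among them Cd79a, Cd79b and Ms4a1, were split, with 5 of 11 measured markers higher in mutants and 6 lower. Their mean level was 5.40 to 5.53 in controls and 5.30 to 5.53 in mutants, with a mean difference of -0.05 (0.06 with medians over probe sets). Macrophage markers were also split, 7 higher and 7 lower of 14. Their mean level ran from 7.73 to 8.15 in controls, and read 8.55 in mutant replicate 1 and 7.75 and 7.77 in the other mutants. Of the 11 B cell markers 2 had a mean level under 5, and none of the 14 macrophage markers did. Of the T and NK cell markers 4 were higher and 7 lower in mutants, of the neutrophil markers 6 and 3, of the stellate cell markers 2 and 8, of the sinusoidal endothelial markers 4 and 6, and of the bile duct markers 5 and 1. No marker of any list passed in limma over all genes. Mutant replicate 1 stood out, with neutrophil markers at 0.82 and stellate cell markers at -0.81, relative to the control mean. The part of these cells in the values of Cd180 was not tested.

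**Figure D3:**
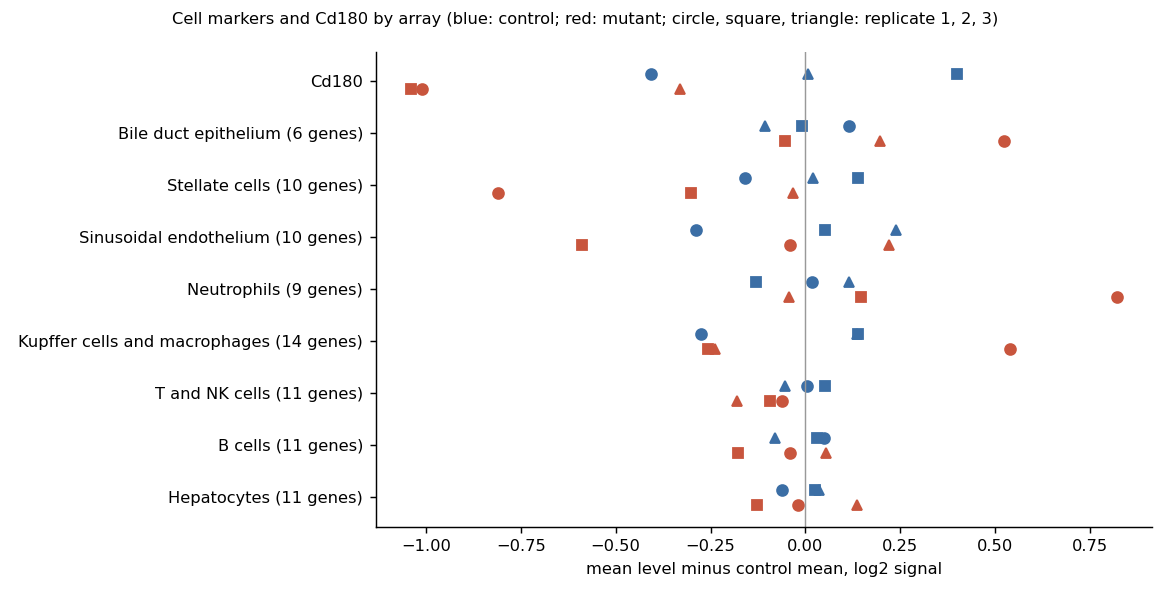
Mean level of each list of cell markers, and of Cd180, on each array as the difference from the control mean (log2 signal); blue points are controls and red points mutants, and the number of genes measured is beside each list. Cd180 is lowest in mutant replicates 1 and 2, while the B cell markers lie within 0.2 log2 units of the control mean on every array.

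The third set was higher in mutants. Glrx, the glutaredoxin, read 9.11, 8.84 and 9.11 in the controls and 9.75, 9.43 and 10.10 in the mutants, 1.67-fold higher with no overlap. It has 2 probe sets, and both separated the groups: 4334053 was 8.18 ± 0.26 in controls and 8.97 ± 0.38 in mutants, and 5002694 was 9.87 ± 0.24 and 10.56 ± 0.29 (SD, n = 3). Over the probe sets of all genes 3.97% had mutants wholly above controls. Relative to each other the 2 probe sets of Glrx differed by only 0.10 between the groups. The difference of Glrx was 0.57 without mutant replicate 3 and 0.90 without mutant replicate 2.

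Hsd17b3, the steroid dehydrogenase, read 4.73, 3.96 and 4.34 in the controls and 5.14, 4.78 and 5.42 in the mutants. The means differed by 1.71-fold and the groups did not overlap, although control replicate 1 and mutant replicate 2 were only just apart. Of its 11 probe sets 10 were higher in mutants, 3 of them with no overlap, where 3.97% of the probe sets of all genes had this. These 3 were dim: 4985142 at 3.50 ± 0.93 in controls and 5.33 ± 0.40 in mutants, 4733157 at 3.05 ± 0.51 and 4.70 ± 1.15, and 4482155 at 1.56 ± 0.35 and 3.18 ± 0.33 (SD, n = 3). Probe sets 4482155 and 4563216 had control means under 3 and were kept because of the mutants. For the brighter 4957307 the controls averaged 7.55 ± 0.21 and the mutants 7.93 ± 0.62 (SD, n = 3), and the groups overlapped. The probe sets with the larger differences in Hsd17b3 were thus the dim ones.

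**Figure D4:**
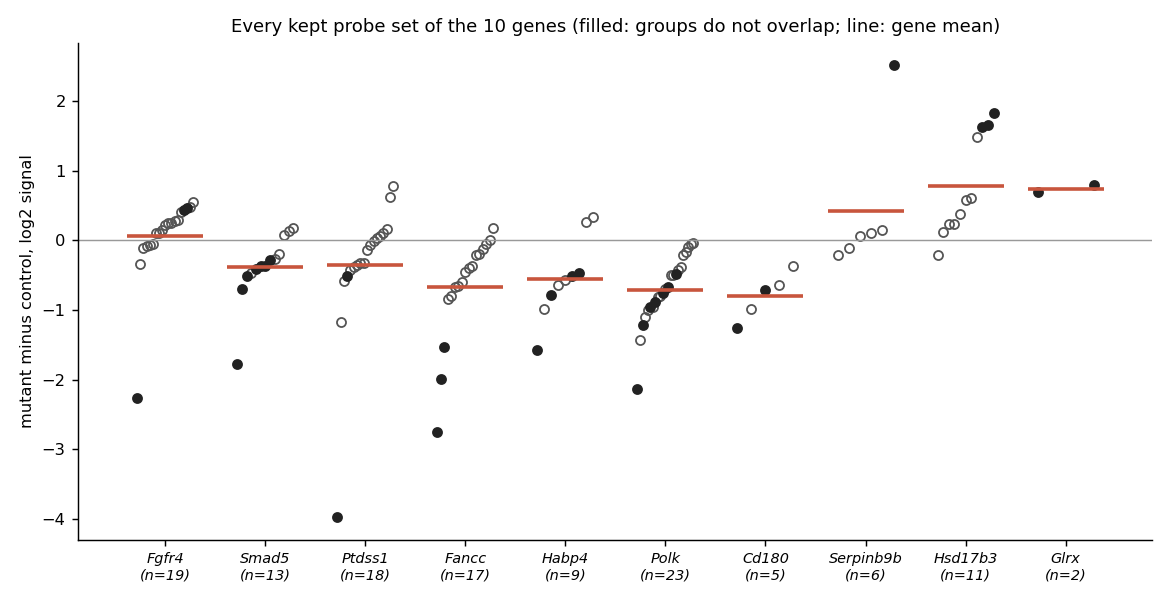
Difference between the mutant and control means (log2 signal) of each of the 123 probe sets used, in order of size within each gene; filled points are probe sets whose groups do not overlap and the red line is the difference of the gene mean. In Ptdss1, Fgfr4 and Serpinb9b a single point lies far from the others, at -3.97, -2.27 and 2.51, while all points of Polk and Cd180 lie below 0.

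Of all 123 probe sets, 26 had mutants below controls with no overlap and 8 had mutants above. The shares over the probe sets of all genes were 4.42% and 3.97%. The number lying 2 or more log2 units from the rest of the gene was 3 below, in Ptdss1, Fgfr4 and Fancc, and 1 above, in Serpinb9b. Over all genes 0.0644% and 0.0345% of the probe sets did so. Tested singly in limma, 0% of all probe sets passed the adjusted threshold and 4.07% had an unadjusted p under 0.05.

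The sequences upstream of 3 genes with differences at several probe sets are shown because 2 of these genes, Hsd17b3 and Habp4, lie close together on the chromosome with opposite differences, and Glrx had all its probe sets higher. Each is the 250 bases before the start of the gene in RefSeq's annotation of GRCm38.p6, written in the direction of transcription. Entries of this table were found for 9 of the 10 genes. Capitals mark matches, on either strand, to the TATA box (TATAAA), the CCAAT box (CCAAT), the GC box (GGGCGG) or the E-box (CACGTG), and no match shown overlaps another. The sequence of Hsd17b3 is chr13:64089202-64089451 on the minus strand, that of Habp4 chr13:64161616-64161865 on the plus strand and that of Glrx chr13:75839635-75839884 on the plus strand.
Hsd17b3: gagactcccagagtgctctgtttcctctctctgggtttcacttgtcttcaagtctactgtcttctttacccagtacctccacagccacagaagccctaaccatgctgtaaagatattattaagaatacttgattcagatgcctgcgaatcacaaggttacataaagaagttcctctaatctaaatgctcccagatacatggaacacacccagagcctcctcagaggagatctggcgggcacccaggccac
Habp4: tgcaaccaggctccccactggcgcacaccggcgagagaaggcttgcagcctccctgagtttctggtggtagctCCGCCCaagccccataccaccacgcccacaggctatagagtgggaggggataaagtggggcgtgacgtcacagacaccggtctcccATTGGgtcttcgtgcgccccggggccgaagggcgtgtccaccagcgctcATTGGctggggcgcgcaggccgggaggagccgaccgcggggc
Glrx: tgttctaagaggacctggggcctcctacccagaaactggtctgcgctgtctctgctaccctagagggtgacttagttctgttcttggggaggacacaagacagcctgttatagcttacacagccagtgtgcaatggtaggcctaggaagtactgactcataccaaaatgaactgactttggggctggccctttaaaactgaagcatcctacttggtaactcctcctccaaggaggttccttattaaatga
The upstream sequence of Habp4 held 2 CCAAT boxes and 1 GC box, and those of Hsd17b3 and Glrx held none of the 4 motifs. In 32851 upstream sequences of the same length, 33.8% held a CCAAT box, 32.7% a GC box, 12.4% a TATA box and 6.02% an E-box. The share of G and C was 68.0% in Habp4, 47.2% in Hsd17b3 and 48.8% in Glrx, against a median of 52.4%. A match describes the letters only, and no binding was measured.

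Along chromosome 13 the 10 genes came in the order Serpinb9b, Fgfr4, Smad5, Fancc, Hsd17b3, Habp4, Ptdss1, Glrx, Polk and Cd180. The closest were Fancc, Hsd17b3 and Habp4, with 2 other measured genes between neighbours of this trio, and Ptdss1 followed after 11 more. Between the remaining neighbours lay 32 to 110 measured genes. None of the genes next to them passed in limma over all genes. The nearest measured genes of Polk, Poc5 and the ceramide transfer protein gene Cert1, differed by -0.21 (SE 0.18) and -0.33 (SE 0.18). Those of Glrx, the elongation factor gene Ell2 and Rhobtb3, differed by -0.55 (SE 0.25) and -0.12 (SE 0.19), opposite to Glrx. Those of Hsd17b3, Ercc6l2 and Slc35d2, differed by -0.10 (SE 0.22) and -0.01 (SE 0.43). Next to Habp4 lay Zfp367 and Cdc14b, at -0.24 (SE 0.17) and -0.54 (SE 0.43). Cdc14b was low in mutant replicate 1 alone, at 7.15 against 8.67 to 9.02 on the other arrays, and differed by 0.03 without it. Beside Fancc, Aopep, whose annotation overlaps it, differed by 0.03 (SE 0.14) and the Hedgehog receptor gene Ptch1 by -0.40 (SE 0.27). Without mutant replicate 1 the difference was -0.12 for Ptch1, -0.09 for Poc5, -0.16 for Cert1, 0.03 for Rhobtb3, 0.15 for Ercc6l2 and 0.52 for Slc35d2.

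The neighbours of the remaining genes were measured in the same way. Fgfr4 lay between Zfp346, at 0.27 (SE 0.16), and the small GTPase gene Rab24, at 0.18 (SE 0.18). Smad5 lay between Tgfbi, at -0.36 (SE 0.25), and the channel gene Trpc7, at 0.10 (SE 0.14). Ptdss1 lay between Mterf3, a mitochondrial transcription factor gene whose annotation overlaps it, at -0.14 (SE 0.17), and Zfp759, at -0.13 (SE 0.31). Serpinb9b lay between Serpinb9, at -0.20 (SE 0.20), and Serpinb1b, at -1.02 (SE 0.41). Cd180 lay between Pik3r1, a subunit of phosphoinositide 3-kinase, at -0.09 (SE 0.33), and the splicing regulator gene Srek1, at 0.01 (SE 0.14). Without mutant replicate 1 the difference was -0.22 for Tgfbi, -0.57 for Serpinb1b, 0.06 for Rab24, 0.25 for Zfp759, -0.12 for Serpinb9 and 0.34 for Pik3r1. Of the nearest genes on either side of the 10, Cert1 alone had groups that did not overlap.

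Of the 52 distinct genes within 3 measured places of the 10, none passed in limma over all genes, for level or for exon usage, and 6 had an unadjusted p under 0.05 for level. Mutants lay wholly below controls in 6 of the 52 and wholly above in 2. Over all genes these shares were 4.32% and 5.15%, and 4.21% had an unadjusted p under 0.05 in limma. The median difference of the 52 was -0.13, against -0.01 over all genes, and it was 0.02 without mutant replicate 1. Among all 538 measured genes of chromosome 13, mutants lay wholly below controls in 7.81% and wholly above in 5.58%. These shares include the 10 genes, and of the 528 others 38 lay wholly below and 27 wholly above. For level, 1 of the 528 passed in limma over all genes, and no other of the 15045 measured genes did. That count over all genes was 0 to 3 with 1 array left out. The exon usage test called 1.17% of the chromosome's genes, 6 in number, and 0 without control replicate 2 or control replicate 3. Of these 6, 4 were among the 10 genes, which this contrast chose, and 2 were other genes. The 12 lower probe sets on this chromosome that lay 2 or more log2 units from the rest of their gene belonged to 12 genes. These included, beside Fgfr4, Fancc and Ptdss1, the respiratory chain gene Uqcrb and Prxl2c, each 2 measured genes from Ptdss1 and Habp4 respectively, both named after their values were seen. Probe set 4846326 of Uqcrb was 8.40 in controls and 5.60 in mutants on average, and 5599761 of Prxl2c was 7.82 and 5.30. The share of such lower probe sets was 0.206% on chromosome 13 and 0.0644% over all genes. Of the 12 on chromosome 13, 3 lie in Fgfr4, Fancc and Ptdss1, which this contrast chose, so nothing is read from that share.

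**Figure D5:**
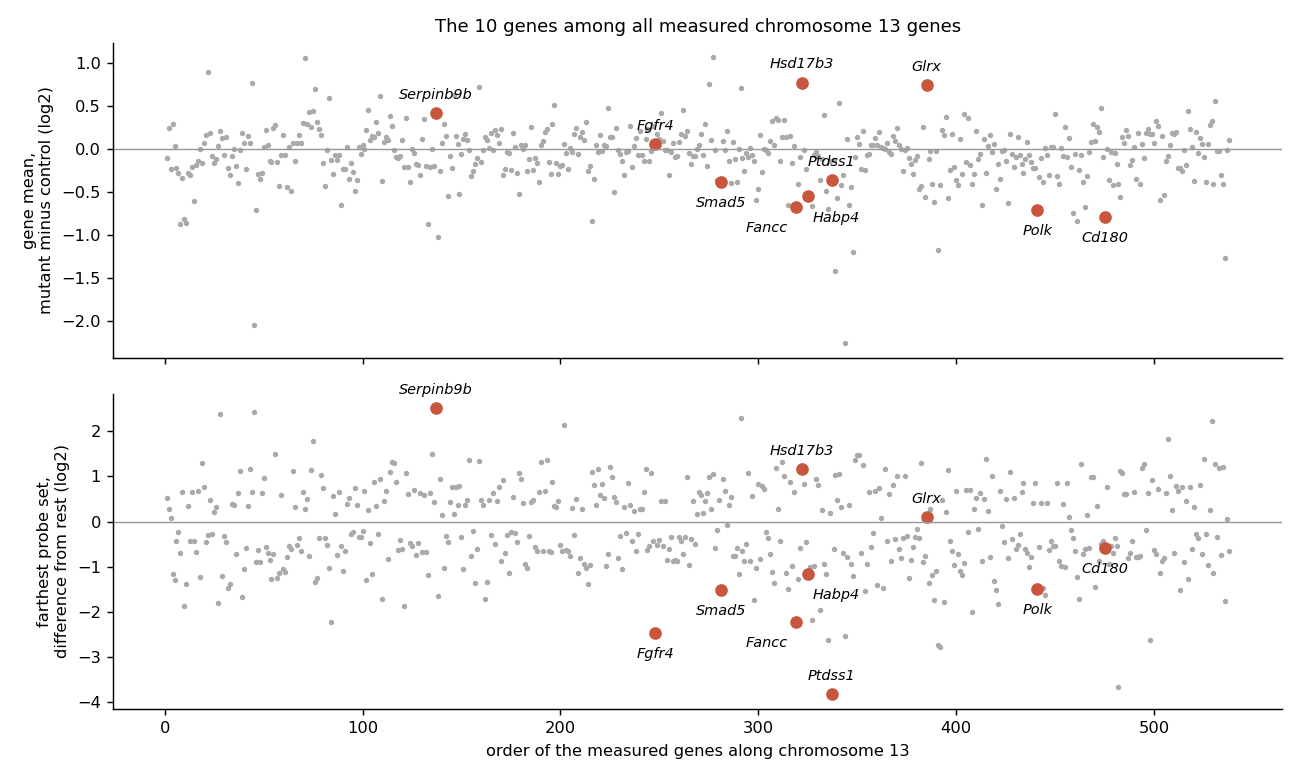
Difference between mutant and control gene means (upper panel) and difference from the rest of the gene at the probe set farthest from it (lower panel), both in log2 signal, for the 538 measured genes of chromosome 13 in their order along it; red points are the 10 genes. Fancc, Hsd17b3, Habp4 and Ptdss1 lie near each other, at places 319 to 337, and the rest of the 10 lie farther apart. The single outlying probe sets of Ptdss1, Fgfr4, Fancc and Serpinb9b in the lower panel are at -3.82, -2.45, -2.21 and 2.51.

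Genes that act with the 10 were taken from 9 lists. In these lists, 113 other genes were measured, of which 47 were higher and 66 lower in mutants. None passed in limma over all genes, and 3 had an unadjusted p under 0.05, where 4.21% of all genes did. None passed for exon usage, where 0.210% of all genes did. Their median difference was -0.07, against -0.01 over all genes. Mutant replicate 1 set much of this: without it 62 of the 113 were higher and 51 lower, with a median of 0.03.

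In the list around Fgfr4 and bile acid feedback, 5 of 13 other genes were higher and 8 lower, with a median of -0.11. The hepatic hormone gene Fgf21 differed by 0.53 (SE 0.22) and the co-receptor Klb by -0.78 (SE 0.37). Klb read 8.70, 9.05 and 8.83 in the controls and 7.18, 8.26 and 8.82 in the mutants. Without mutant replicate 1 Klb differed by -0.33 and the median of the list was -0.03. The bile acid enzymes Cyp7a1 and Cyp8b1, chosen after the values were seen, differed by -0.15 (SE 0.46) and -0.26 (SE 0.26). Cyp7a1 was 0.42 without control replicate 1, and Cyp8b1 was -0.08 without mutant replicate 1. In the BMP and SMAD list, 5 of 17 were higher and 12 lower, with a median of -0.13. The inhibitory Smad6 differed by -0.25 (SE 0.14) and the receptor Bmpr2 by -0.35 (SE 0.20), the latter by -0.16 without mutant replicate 1. Smad1, the closest relative of Smad5 in this pathway and likewise named after its value was seen, differed by 0.01 (SE 0.23), and by -0.26 without mutant replicate 1.

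Among 15 other genes of phospholipid synthesis, 5 were higher and 10 lower, but 9 and 6 without mutant replicate 1. Pisd, which turns phosphatidylserine into phosphatidylethanolamine, differed by 0.41 (SE 0.21) and the methyltransferase Pemt by 0.23 (SE 0.16). The sister enzyme Ptdss2, named after its value was seen, differed by -0.03 (SE 0.15). In the Serpinb family 6 of 13 were higher and 7 lower, with Serpinb1b at -1.02 (SE 0.41; -0.57 without mutant replicate 1) and Serpinb2 at -0.35 (SE 0.17). Of 20 other genes of the Fanconi anaemia pathway and translesion synthesis, 5 were higher and 15 lower, with a median of -0.13. This split rested on mutant replicate 1, without which 10 were higher and 10 lower, with a median of 0.003. Rad18, which marks the sliding clamp for translesion polymerases, differed by -0.35 (SE 0.15) and the clamp itself, Pcna, by -0.55 (SE 0.29). Without mutant replicate 1 these were -0.30 and -0.27.

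Of 9 other 17-beta-hydroxysteroid dehydrogenases 6 were higher and 3 lower, or 8 and 1 without mutant replicate 1. Hsd17b7, an enzyme of cholesterol synthesis, differed by 0.42 (SE 0.24; 0.69 without mutant replicate 1) and Hsd17b2 by 0.22 (SE 0.17; 0.09 without mutant replicate 3). Of 17 other glutaredoxins, thioredoxins and their partners 8 were higher and 9 lower, but 14 and 3 without mutant replicate 1. Glrx3 differed by -0.46 (SE 0.26; -0.15 without mutant replicate 1) and glutathione reductase, Gsr, by 0.21 (SE 0.15). In the list of the CD180 and TLR4 receptors 7 of 8 others were higher and 1 lower, with a median of 0.29. Without mutant replicate 1 that median was 0.04, with 6 higher and 2 lower. Its members of smallest p were the co-receptor Cd14, at 0.75 (SE 0.39), and the lipopolysaccharide-binding protein Lbp, at 0.65 (SE 0.34), and both were 0.24 without mutant replicate 1. Cd14 read 5.65, 5.55 and 5.76 in the controls and 7.43, 5.81 and 5.97 in the mutants, with mutant replicate 1 far the highest and the groups just apart. Serbp1, the relative of Habp4, differed by -0.09 (SE 0.20), and by 0.07 without mutant replicate 1.

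For each of the 10 genes, the measured gene with the most similar course over the 6 arrays was sought, by the root mean square distance between gene means centred on their average. With 15045 genes and 6 arrays, close matches are found for most courses, so these are given as a description. The closest to Ptdss1 was the BMP receptor gene Bmpr2 (distance 0.01 log2 units), to Fgfr4 the mitochondrial carrier gene Slc25a23 (0.02), to Smad5 Btg1 (0.03), to Fancc Enpep (0.05) and to Serpinb9b Lrrc10 (0.05). Those closest to Cd180, Polk, Habp4, Hsd17b3 and Glrx were Ndufc2 (0.06), Gbp4 (0.07), Zmym6 (0.08), Trappc2l (0.09) and Tmem254a (0.12). None of these 10 closest matches lies on chromosome 13.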

How the data were processed

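The authors deposited log2 signals for 204531 probe sets on 6 arrays. Per the submitters' processing notes, the tools were RMA, Partek 6.4 and Affymetrix Expression Console 1.1, with the genome build mm9; their roles and order are not stated there. RMA, which subtracts background and normalizes by quantiles, compresses differences of dim probe sets. Gene symbols came from the platform annotation, and a RefSeq table of GRCm38.p6 gave current symbols, gene order and overlaps between gene annotations. Its gene coordinates were used for that order and those overlaps. Probe sets with a mean of 3 or more in a group were kept (191663), and a gene's value is the mean of at least 2. Groups were compared with limma 3.58.1 in R 4.3.3 (lmFit and eBayes; diffSplice for 14310 genes with at least 3 probe sets), with Benjamini-Hochberg adjustment over all genes at 0.05. The steps were run on simulated data in which the probe sets of a gene had equal spread and independent noise. The exon usage test was also run on simulated data without any change, with equal and with unequal spread within a gene. Its false calls there are not given here. Recovery of changes under unequal spread was not simulated.

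The 10 genes and the gene lists were chosen with earlier results of these data known. Named were the 10 genes, their farthest probe sets and those 2 or more log2 units from the rest, the nearest measured gene on each side, up to 2 other genes of smallest p per list and the most similar gene. All other probe sets named in the text were picked after their values were seen. Alternatives were other signal minimums, normalizations, summaries, moderation, weights, a replicate block and leaving out each array.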

Additional observations from a re-analysis of the deposited data

How the results depend on the processing

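Counts for the 10 genes and chromosome 13, the lists and the cell markers were recomputed under alternatives chosen after seeing the data. Of 130 alternative values of the 10 gene differences, 126 moved by less than the spread within groups and 3 changed sign. These 3 were Fgfr4 without mutant replicate 3 (-0.08) and with array weights (-0.01), and Serpinb9b with a minimum signal of 5 (-0.05). Serpinb9b was 0.21 with no minimum and 0.18 without control replicate 3, and Habp4 was -0.92 with medians over probe sets. All 128 alternative values of the farthest probe sets stayed within that spread, and 1 changed sign (Glrx, from 0.10 to -0.10 without control replicate 1). In each family 60 values came from leaving out 1 array, which cannot move a difference by that spread while the same probe sets are kept. The replicate block returned the same differences, and so did median centring for the probe sets. Stability is therefore not read from these counts. Over all genes, the gene-level count of 1 became 0 with no minimum or with the replicate block, 2 with quantile normalization, median centring or array weights, and 0 to 3 with 1 array left out. The count of 0 single probe sets became 2 with a minimum of 5, 7 with an intensity trend, 3 with array weights and 0 to 5 with 1 array left out (7805 had an unadjusted p under 0.05 in limma). The exon usage count of 30 became 18 with the replicate block, 130 with the Simes p and 13 (without control replicate 2) to 58 (without mutant replicate 2) with 1 array left out, and that of the 10 genes, 4, became 2 with the replicate block and 0 to 3 with 1 array left out. On chromosome 13 the exon usage count of 6 became 12 with the Simes p and 0 to 7 with 1 array left out. Genes whose groups do not overlap, 1425, became 2247 to 4124 with 1 array left out, since fewer arrays overlap less often. The mean difference of the cell marker genes of B cells, -0.05, was 0.060 with medians over probe sets. The cause of the other shifts was not tested. Replicate numbers are shared by the groups without a stated pairing. Deviations of same-numbered arrays correlated at 0.10, -0.11 and 0.18, and 1 of 3 controls and 1 of 3 mutants correlated best with its own number, so the arrays were not treated as paired. The diffSplice F-test pools the spread of a gene's probe sets. Signals near 3 are limited by background.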
